A study of Mus musculus with 15 samples.

Results

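The interferon response and MHC class I module comprised 38 genes, chosen by name as interferon-stimulated genes and as parts of the MHC class I antigen presentation pathway, of the 55984 gene symbols counted in the study. All 38 were in the count table, and all 38 passed the filter on low counts that left 17488 genes to test. RNA-seq was done on hepatocytes from the livers of individual WT adult male C57BL/6JJcl mice, with no treatment, sorted by flow cytometry on the fluorescence of the DNA dye Hoechst. The 2n-whole population held diploid cells, the 4n-whole population held tetraploid cells of either kind, and the 4n gate was also split into 4n-bottom (lower Hoechst height, enriched for binucleated cells) and 4n-top (higher Hoechst height, enriched for mononucleated cells but still holding many binucleated ones). Mice 1 to 4 each gave 2n-whole, 4n-whole and 4n-bottom libraries, and mice 2 to 4 gave 4n-top libraries, so that 15 libraries were used, with 4, 4, 4 and 3 per population. The 4n-top library of mouse 1 was not analysed here, and after sorting the 2n cells were spun at a higher force than the 4n cells. The study compared hepatocytes of different ploidy and, within tetraploid cells, cells with 1 nucleus or 2 nuclei. The members were followed here between these populations and among the mice.

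Type I interferons signal through their receptor and the kinases JAK1 and TYK2 to a complex that contains STAT2 and IRF9 and binds the interferon-stimulated response element (ISRE) of its target genes. Many genes induced by interferon gamma carry the gamma-activated site (GAS), and among its targets is IRF1, itself an activator of the MHC class I genes. Hepatocytes are targets of hepatotropic viruses, express interferon receptors, and raise both groups of genes when stimulated. An MHC class I molecule is a heavy chain (H2-K1, H2-D1) held together with beta-2-microglobulin (B2m), loaded with peptides that the transporter TAP (Tap1, Tap2) carries into the endoplasmic reticulum and that tapasin (Tapbp) helps to fit.

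The letters these factors read were looked for in the RefSeq promoter windows (GRCm38.p6, 250 bases before to 50 after a gene's start), which were at hand for 31 of the 38 members. The ISRE core was searched as GAAANNGAAA, on both strands, and the GAS as TTCNNNGAA, which reads the same on both strands. The stretches below, 30 bases each on the strand of the gene, are those of the members on which the comparisons turn and of a few classical targets, with every match in capitals.
B2m (chr2:122147538-122147567, plus strand): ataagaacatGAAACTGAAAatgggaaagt
H2-T23 (chr17:36032806-36032835, minus strand): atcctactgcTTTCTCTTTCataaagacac
Bst2 (chr8:71537583-71537612, minus strand): ggcaTTCCAGGAAAATGAAACTGAAAggct
Stat2 (chr10:128270266-128270295, plus strand): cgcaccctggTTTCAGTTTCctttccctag
Irf1 (chr11:53769914-53769943, plus strand): acagcctgatTTCCCCGAAatgatgaggcc
Gbp7, GAS matches (chr3:142530229-142530258, plus strand): tTTCCAGGAAaagcagaagcTTCTCAGAAa
Gbp7, ISRE match (chr3:142530273-142530302, plus strand): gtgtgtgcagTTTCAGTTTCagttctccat
Igtp (chr11:58199507-58199536, plus strand): ccatTTCTAGGAActGAAACTGAAAgctgt
Irgm2 (chr11:58214898-58214927, plus strand): ccatTTCCAGGAActGAAACTGAAAgctgt
Ifit1 (chr19:34640785-34640814, plus strand): TTTCACTTTCcagtctcagTTTCAGTTTCt
Isg15 (chr4:156200871-156200900, minus strand): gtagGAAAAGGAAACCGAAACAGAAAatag

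In B2m a single ISRE core began 139 bases before the start. In Bst2 a GAS match began 136 bases before the start and ran into 2 overlapping ISRE cores, whereas the Isg15 window held 3 overlapping ISRE cores, the first of them 78 bases before the start. The stretches of Igtp and Irgm2, neighbouring genes of the same GTPase family, differed by the substitution T8C alone (the Igtp base first, counted from 1 at the 5' end of the stretch). Irf1 held a GAS match 90 bases before its start and no ISRE core. Of the 31 members with a window, 16 (51.6%) held an ISRE core and 8 (25.8%) a GAS match, compared with 3.99% and 9.55% of the 27025 genes with a window. All 6 interferon-inducible GTPases held an ISRE core, as did 5 of 11 antiviral effectors, 2 of 6 sensor and signalling genes, 2 of 6 MHC class I pathway genes (B2m and H2-T23) and 1 of 2 genes of the ISG15 and PARP list. A match describes these letters only and was not tested as a binding site. The GENCODE M39 transcripts of B2m, H2-T23, Gbp7 and Irgm2 include ones that begin upstream of the RefSeq start, so the windows depend on the start that was annotated. The GENCODE gene of Irgm2 begins at chr11:58090444 (GRCm39), within Igtp on the same strand.

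Total counts ranged from 22049498 (4n-whole of mouse 2) to 42096421 (2n-whole of mouse 1), and 3 counts, taken as the detection limit for counting error only, corresponded to 0.0693 to 0.12 CPM (counts scaled to library size by TMM). The 9 hepatocyte markers summed to between 73700 and 104000 CPM in every library. The 11 endothelial markers summed to 20.4 to 34.7 CPM in 2n-whole, 6.26 to 40.8 in 4n-whole, 7.01 to 33.4 in 4n-bottom and 7.18 to 25.1 in 4n-top. The 12 Kupffer cell and macrophage markers summed to 0.764 to 10.7 CPM in 2n-whole and to at most 4.44 CPM elsewhere, and 1 to 8 of them were at 0 in each library. In sorted bulk samples, fewer cells of a type and less RNA per cell cannot be told apart.

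Members spanned about 4 orders of magnitude when levels were divided by exon length. B2m was highest, at 285 ± 81.5 CPM per kb (SD, n = 15 libraries), followed by H2-K1 at 111 ± 8.37, H2-D1 at 68.1 ± 6.64 and Bst2 (tetherin, which holds budding virions at the cell surface) at 35.2 ± 8.01. The ranges of H2-K1 (95 to 128) and H2-D1 (57.9 to 83.7) did not overlap. H2-T23, a non-classical class I gene, at 15.1 ± 1.6, Trim25, a ubiquitin ligase of the RIG-I pathway, at 14.2 ± 2.43, and Stat2 at 11.7 ± 2.86 came next, and neighbours among these did not differ beyond their spread. Most classical interferon-stimulated genes were low: Ifit3 was at 1.15 ± 0.435, Ifit1 at 0.644 ± 0.191 and Isg15, the ubiquitin-like modifier, at 0.398 ± 0.263 CPM per kb. Isg15, Ifit2, Oas1a and Oasl2 were at 0 counts in at least 1 library, and a fitted fold change of these genes depends on the prior count.

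Among the MHC class I genes, B2m was lower in 4n-whole than in 2n-whole hepatocytes while the classical heavy chains were not. B2m (GRCm39, chr2:121977957-121983594, plus strand, with Patl2 overlapping on the opposite strand) was at 841, 836, 685 and 864 CPM in 2n-whole of mice 1 to 4 and at 610, 317, 536 and 346 CPM in 4n-whole. Every 4n-whole library lay below every 2n-whole library, and the ratio within a mouse ranged from 0.379 in mouse 2 to 0.781 in mouse 3. The log2 fold change was -0.87 ± 0.14 (SE), with an adjusted p of 0.000355 in edgeR's quasi-likelihood test over all genes. The 2 lowest values, in mice 2 and 4, came from the 4n-whole libraries with the fewest counts (22049498 and 28612634), and the part of depth in the result was not tested. Without the 4n-whole library of mouse 2 the log2 fold change was -0.71 with an adjusted p of 0.000956. Without the mouse as a block it was -0.84 with an adjusted p of 0.0906.

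The same gene was at 723, 613, 430 and 619 CPM in 4n-bottom of mice 1 to 4 and at 551, 597 and 440 CPM in 4n-top of mice 2 to 4. It was lower than in the 2n-whole library of the same mouse in 4 of 4 mice and in 3 of 3 mice, with log2 fold changes of -0.45 ± 0.14 (adjusted p = 0.226) and -0.53 ± 0.16 (adjusted p = 0.128), neither of which passed the test. The 4n-top values lay below all of 2n-whole, and those of 4n-bottom overlapped with it. These comparisons share the 2n-whole libraries. Whether 4n-whole differed from the 4n-bottom and 4n-top cells sorted within the same gate was not tested.

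H2-K1 was at 338, 339, 360 and 358 CPM in 2n-whole of mice 1 to 4 and at 303, 408, 349 and 357 CPM in 4n-whole. The log2 fold change was 0.02 (95% interval -0.16 to 0.19), so that the groups overlapped and differed by less than their spread. H2-D1, the other classical heavy chain, was at 185, 221, 203 and 206 CPM in 2n-whole and at 173, 251, 202 and 195 CPM in 4n-whole, with a 95% interval of the log2 fold change from -0.17 to 0.17. H2-K1 was at 316, 354, 371 and 374 CPM in 4n-bottom and at 384, 372 and 331 CPM in 4n-top, and H2-D1 was at 177, 212, 206 and 204 CPM and at 228, 207 and 187 CPM, within the range of the 4n-whole libraries. H2-K1 and H2-D1 shared 11.3% and 12.6% of their 50-base stretches with each other, and how the authors' counting divided such reads is not given in the sources used here.

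A ratio of B2m to the sum of H2-K1 and H2-D1, each per kb, was formed after their values were seen. In 2n-whole of mice 1 to 4 it was 2.37, 2.2, 1.8 and 2.26. In 4n-whole it was 1.89, 0.71, 1.44 and 0.928, lower in 4 of 4 mice, although mouse 1 overlapped the 2n-whole range. In 4n-bottom it was 2.17, 1.6, 1.1 and 1.58, and in 4n-top of mice 2 to 4 it was 1.33, 1.52 and 1.25. Within mice, the mean log2 difference from 2n-whole was -0.89 ± 0.67 (SD, 4 mice) in 4n-whole, -0.46 ± 0.24 (4 mice) in 4n-bottom and -0.61 ± 0.32 (3 mice) in 4n-top, below 0 in every mouse, and between 4n-top and 4n-bottom it was -0.05 ± 0.45 (lower in 2 of 3 mice). In two-sided exact sign-flip permutation tests, p was 0.125, 0.125, 0.25 and 1 for these 4 comparisons, and 0.125 with 4 mice and 0.25 with 3 are the smallest p that the design allows, so that none could pass. The unpaired exact permutation test over libraries gave p = 0.0571 for each population against 2n-whole (adjusted p = 0.0761) and 0.457 for 4n-top against 4n-bottom. This test leaves out the pairing by mouse, and with 3 and 4 libraries 0.0571 is the smallest p that it can give. As the ratio was formed after the values were seen, these p-values are no independent support.

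**Figure D1:**
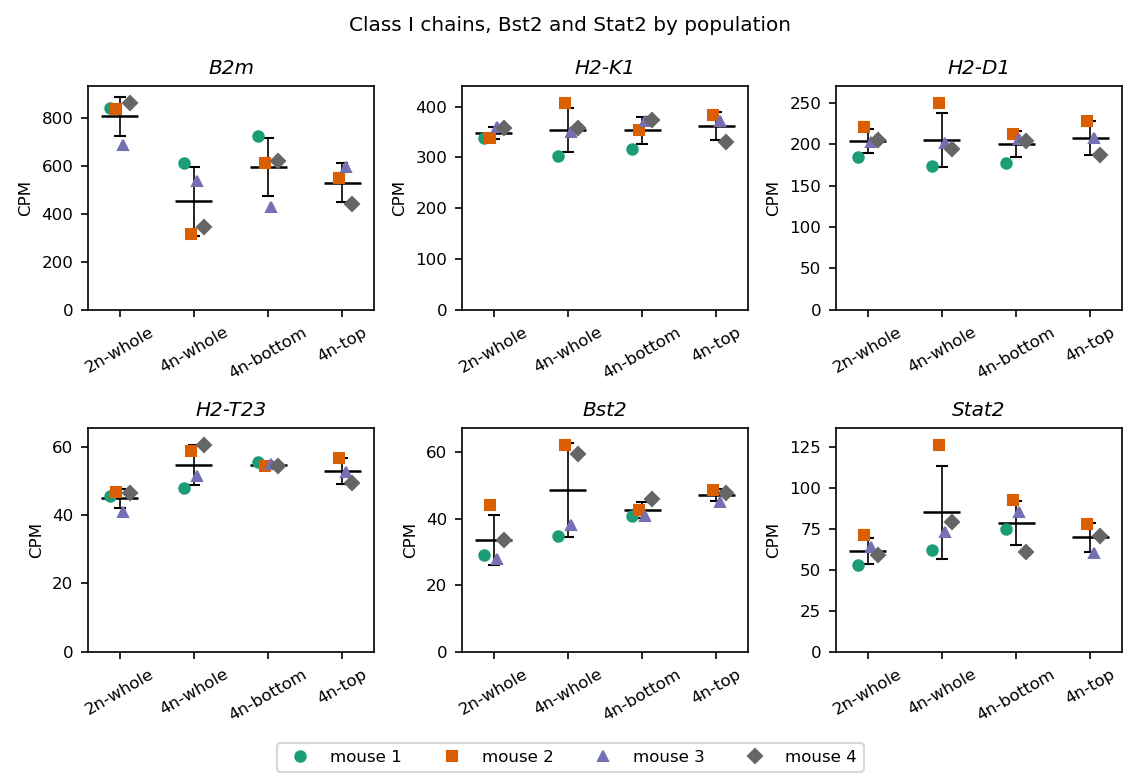
CPM (TMM-scaled) of B2m, H2-K1, H2-D1, H2-T23, Bst2 and Stat2 in each library by population, with the mouse as symbol, the mean as a bar and the SD as whiskers (n = 4, and 3 for 4n-top). The 4n-whole libraries of B2m sit between 317 and 610 CPM, all below the 2n-whole libraries, whereas H2-K1 and H2-D1 overlap in all populations.

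The remaining class I genes changed little. H2-T23 was at 45.7, 46.8, 40.8 and 46.3 CPM in 2n-whole of mice 1 to 4 and at 48, 58.7, 51.4 and 60.6 CPM in 4n-whole, higher in 4 of 4 mice and without overlap, but its log2 fold change of 0.28 ± 0.10 had an adjusted p of 0.0938. In 4n-whole against 2n-whole, groups failed to overlap for 2 of the 38 members, B2m and H2-T23, and for 5.8% of all tested genes. H2-T23 was at 55.5, 54.2, 55 and 54.2 CPM in 4n-bottom and at 56.8, 52.6 and 49.3 CPM in 4n-top. These values lay above all of 2n-whole too, with log2 fold changes of 0.29 (adjusted p = 0.283) and 0.22 (adjusted p = 0.446). In 4n-bottom H2-T23 was the 1 member without overlap, when 296 tested genes were higher and 320 lower without overlap. Tap1, a subunit of the peptide transporter, was at 21.2, 13.4, 10.1 and 18.4 CPM in 2n-whole and at 20.4, 20.7, 11.8 and 17.1 CPM in 4n-whole, higher in 2 mice and lower in 2, and at 17.6, 19.6, 12.1 and 12.9 CPM in the 4n-bottom libraries and at 24.7, 10.36 and 15.1 CPM in those of 4n-top. Nlrc5, the activator of class I genes, was at 23.1, 22.9, 26.7 and 29.5 CPM in 2n-whole, at 27.9, 45.5, 24.9 and 30.6 CPM in 4n-whole, at 45.8, 31.9, 32 and 25.4 CPM in 4n-bottom, and at 29.9, 24.4 and 28.7 CPM in 4n-top. The groups of Nlrc5 overlapped, with a log2 fold change of 0.31 ± 0.16 (adjusted p = 0.289) in 4n-whole. Tap2 (log2 fold change 0.09) and Tapbp (0.00) did not pass the test either.

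Of the 38 members, 2 (Bst2 and B2m) passed as called in 4n-whole against 2n-whole, that is at an adjusted p under 0.05 with a log2 fold change past 0.5 in either direction, when 3.47% of all tested genes were. Bst2 was higher, as were 1.74% of genes, and B2m was lower, as were 1.73%. At an unadjusted p under 0.05, 5 members were higher and 4 lower, and 20.4% of all tested genes passed in either direction. The median log2 fold change was 0.01 over the members and -0.01 over all tested genes, and 21 members had a fold change above 0 and 17 below.

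Bst2 (GRCm39, chr8:71986895-71990114, minus strand) was at 29.1, 44, 27.8 and 33.5 CPM in 2n-whole of mice 1 to 4 and at 34.8, 62.3, 38 and 59.4 CPM in 4n-whole. It was higher in 4n-whole in 4 of 4 mice, although the groups overlapped, with a log2 fold change of 0.52 ± 0.12 (adjusted p = 0.012). In 4n-bottom it was at 40.8, 42.7, 40.9 and 45.8 CPM and in 4n-top at 48.7, 45.1 and 47.6 CPM, with log2 fold changes of 0.36 (adjusted p = 0.262) and 0.44 (adjusted p = 0.145) against 2n-whole. The value in 4n-whole lies close to the limit on the fold change, and the call was lost without mouse 4 (0.40, adjusted p = 0.223), without the 4n-whole library of mouse 2 (0.44, adjusted p = 0.0558), with only the libraries of the compared populations (0.51, adjusted p = 0.0519), without the mouse as a block (adjusted p = 0.261) and with a covariate for Kupffer, endothelial and stellate markers (0.45, adjusted p = 0.0772). B2m kept its call with that covariate (log2 fold change -0.79, adjusted p = 0.00771).

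The other 10 antiviral effectors gave no call. Ifit1, which binds foreign RNA, was at 5.52, 6.76, 4.1 and 3.97 CPM in 2n-whole of mice 1 to 4, at 6.69, 5.21, 2.29 and 6.07 CPM in 4n-whole, at 4.06, 5.37, 2.4 and 4.94 CPM in 4n-bottom, and at 5.86, 3.13 and 5.3 CPM in 4n-top. Ifit3, its partner, was at 2.96, 4.56, 1.39 and 3.76 CPM in 2n-whole, at 5.07, 3.33, 2.4 and 3.41 CPM in 4n-whole, at 3.26, 3.77, 1.03 and 5.2 CPM in 4n-bottom and at 2.72, 2.19 and 4.67 CPM in 4n-top, and it shares 31.7% of its 50-base stretches with Ifit3b, so its counts are uncertain. Both overlapped between populations, as did Rsad2 (viperin) and Cmpk2, its neighbour on chromosome 12. Oasl2, an oligoadenylate synthetase-like gene, was at 0, 0.422, 0.139 and 0.115 CPM in 2n-whole of mice 1 to 4, at 0.154, 0.401, 0 and 0 CPM in 4n-whole, at 0, 0.24, 0 and 0.105 CPM in 4n-bottom and at 0.462, 0.156 and 0.418 CPM in 4n-top, again with 20 counts or fewer in every library. Ifi35, Ifi44, Xaf1 and Oas1a had log2 fold changes of 0.33, -0.66, 0.05 and -1.04 with adjusted p-values of 0.341, 0.674, 0.974 and 0.689, and of these Ifi44, Xaf1 and Oas1a were at 2.31 CPM or less in every library.

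Among the sensor and signalling genes, Stat2 was at 52.7, 71.5, 63.7 and 58.8 CPM in 2n-whole of mice 1 to 4 and at 61.9, 126, 73 and 79.4 CPM in 4n-whole. It was higher in 4 of 4 mice, with a log2 fold change of 0.43 ± 0.12 and an adjusted p of 0.0294, but it stayed under the limit on the fold change and was not called. It was at 74.9, 92.3, 85.5 and 61.1 CPM in 4n-bottom and at 78.1, 60.5 and 70.6 CPM in 4n-top. Irf9, the DNA-binding partner of Stat2, was at 23.4, 26.7, 16 and 22.5 CPM in 2n-whole and at 30.5, 31.6, 16 and 23 CPM in 4n-whole (log2 fold change 0.17, adjusted p = 0.525), and at 20.8, 30.2, 16.6 and 25.9 CPM in the 4n-bottom libraries and at 34.6, 17.2 and 18.4 CPM in those of 4n-top. Irf7, which amplifies interferon production, was at 18.7, 17.9, 11.6 and 17 CPM in 2n-whole and at 11.9, 13, 12.8 and 15 CPM in 4n-whole (log2 fold change -0.31, adjusted p = 0.31), and at 10.8, 16.2, 18.5 and 15 CPM in the 4n-bottom libraries and at 19.7, 14.2 and 15.8 CPM in those of 4n-top. Both overlapped between the populations. The RNA sensors Ifih1 (MDA5) and Dhx58 (LGP2) had log2 fold changes of -0.31 (adjusted p = 0.211) and 0.36 (adjusted p = 0.397), and Zbp1, a sensor of Z-form nucleic acid, had -0.48 (adjusted p = 0.26).

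In the ISG15 and PARP list no member was called. Isg15 was at 0.222, 0.241, 0.209 and 0.374 CPM in 2n-whole of mice 1 to 4, at 0.489, 0.802, 0.32 and 0.285 CPM in 4n-whole, at 0, 0.192, 0.249 and 0.184 CPM in 4n-bottom and at 0.393, 0.0782 and 0.627 CPM in 4n-top, with 20 counts or fewer in every library. Usp18, which removes ISG15 and dampens interferon receptor signalling, was at 3.18, 4.01, 3.41 and 5.6 CPM in 2n-whole and at 5.2, 6.49, 3.44 and 3.19 CPM in 4n-whole. In 4n-bottom it was at 6.66, 6.14, 2.68 and 3.36 CPM and in 4n-top at 4.76, 0.899 and 5.65 CPM, overlapping throughout. Parp14, an ADP-ribosyltransferase, was lower in 4n-whole in 4 of 4 mice with a log2 fold change of -0.33 ± 0.12, which did not pass (adjusted p = 0.106). Parp9 and Dtx3l, partners whose genes overlap on opposite strands, had log2 fold changes of 0.08 and -0.17.

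The interferon-inducible GTPases, which take part in defence against intracellular pathogens, were likewise not called. The fold changes of Irgm1 (0.37 ± 0.13 on the log2 scale, adjusted p = 0.101) and Gbp7 (-0.51 ± 0.21, adjusted p = 0.157) had opposite signs. Igtp, Irgm2, Gbp2 and Gbp3 lay between -0.21 and -0.06 on the log2 scale.

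**Figure D2:**
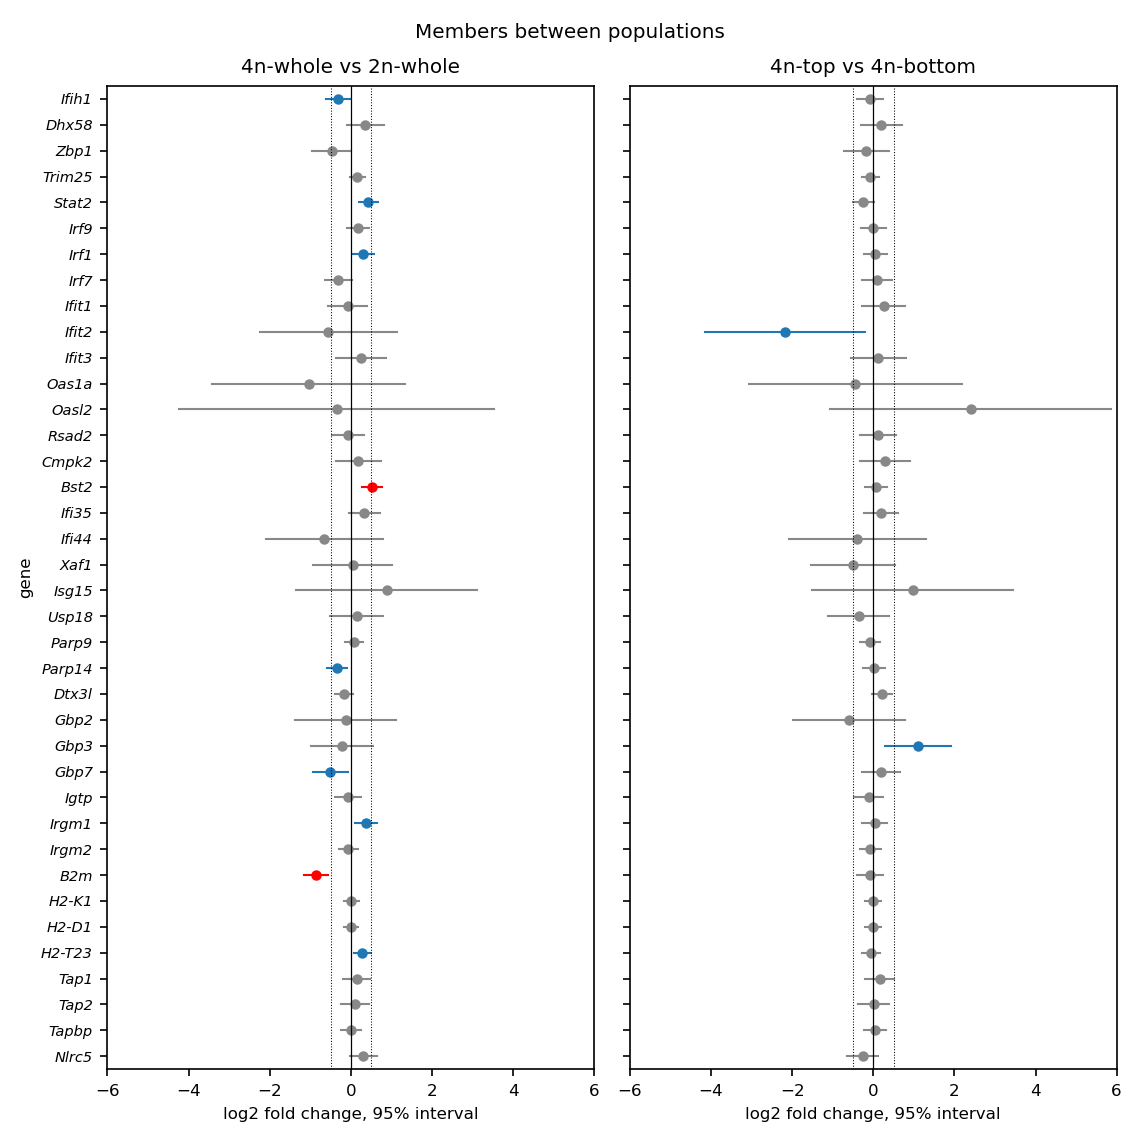
Log2 fold change of each of the 38 members with its 95% interval for 4n-whole against 2n-whole and for 4n-top against 4n-bottom; positive values are higher in the population named first, dotted lines mark 0.5 in either direction, red marks called members and blue an unadjusted p under 0.05. Bst2 (0.52) and B2m (-0.87) are the red points on the left, and no member is red on the right.

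In 4n-top against 4n-bottom hepatocytes, the comparison of tetraploid cells enriched for 1 or 2 nuclei, no member was called, and 0.0114% of all tested genes (2 genes) were. No member was called by DESeq2 either. At an unadjusted p under 0.05, 2 of the 38 members passed, against 2.79% of all tested genes. Gbp3 was at 2.74, 0.873 and 1.58 CPM in 4n-bottom of mice 2 to 4 and at 5.77, 1.25 and 3.83 CPM in 4n-top, higher in 3 of 3 mice with a log2 fold change of 1.10 ± 0.40 (adjusted p = 1). Its 4n-bottom library of mouse 1 was at 1.66 CPM, and the groups overlapped. In the other populations Gbp3 was at 3.45, 6.25, 0.348 and 1.98 CPM (2n-whole of mice 1 to 4) and at 2.94, 2.53, 1.23 and 1.49 CPM (4n-whole). Ifit2, a relative of Ifit1, was at 1.23, 0.966, 0.348 and 0.345 CPM in 2n-whole of mice 1 to 4, at 0.669, 0.0802, 0.266 and 0.948 CPM in 4n-whole, at 1.32, 0.744, 0.187 and 0.683 CPM in 4n-bottom and at 0.185, 0 and 0.209 CPM in 4n-top. It was lower in 4n-top than in 4n-bottom in 3 of 3 mice, with a log2 fold change of -2.17 ± 0.96 (adjusted p = 1). The 4n-top libraries held 8, 0 and 6 counts of it, so that this fold change depends on the prior count, whereas 4n-bottom held 46, 31, 6 and 26 counts. B2m (log2 fold change -0.08), Stat2 (-0.24, adjusted p = 1) and H2-T23 (-0.06) overlapped between the pair of populations.

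No member was called in 4n-bottom against 2n-whole, where 0.463% of all tested genes were, or in 4n-top against 2n-whole, where 0.961% were, and DESeq2 called none in either. At an unadjusted p under 0.05, 5 members passed in 4n-bottom (Stat2, Bst2, Nlrc5 and H2-T23 higher, B2m lower), against 10.2% of all tested genes, and 3 passed in 4n-top (Bst2 higher, B2m and Ifit2 lower), against 11.3%. In 4n-top, 4 members did not overlap with 2n-whole (B2m, Bst2, Ifit2 and H2-T23), as did 9.21% of all tested genes. The B2m value in 4n-top depended on the mice and libraries used. It passed without mouse 2 (-0.53, adjusted p = 0.0479), without mouse 3 (-0.66, adjusted p = 0.00728), without the 4n-whole library of mouse 2 (-0.54, adjusted p = 0.0208) and with only the compared populations (-0.60, adjusted p = 0.000393), and without mouse 4 it was -0.35 (adjusted p = 0.825). Bst2 passed in 4n-top without mouse 2 (0.54, adjusted p = 0.0479) and was at 0.31 without mouse 3 (adjusted p = 0.6) and 0.41 without mouse 4 (adjusted p = 0.697).

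Most members differed among the mice. In the test of the mouse in the same fit, 23 of 38 members had an adjusted p under 0.05, when 19.2% of all tested genes did. These were 7 of 8 sensor and signalling genes, 5 of 6 GTPases, 3 of 5 of the ISG15 and PARP list, 5 of 11 antiviral effectors and 3 of 8 MHC class I pathway genes. Of the 23, 19 were lowest in mouse 3 and 14 were highest in mouse 2, and the matching shares of all tested genes are not given here. The median range over the mice was 0.93 on the log2 scale for the members and 0.67 for all tested genes. Libraries of a mouse came from the same liver, and litter, handling day and perfusion cannot be told apart from the mouse.

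**Figure D3:**
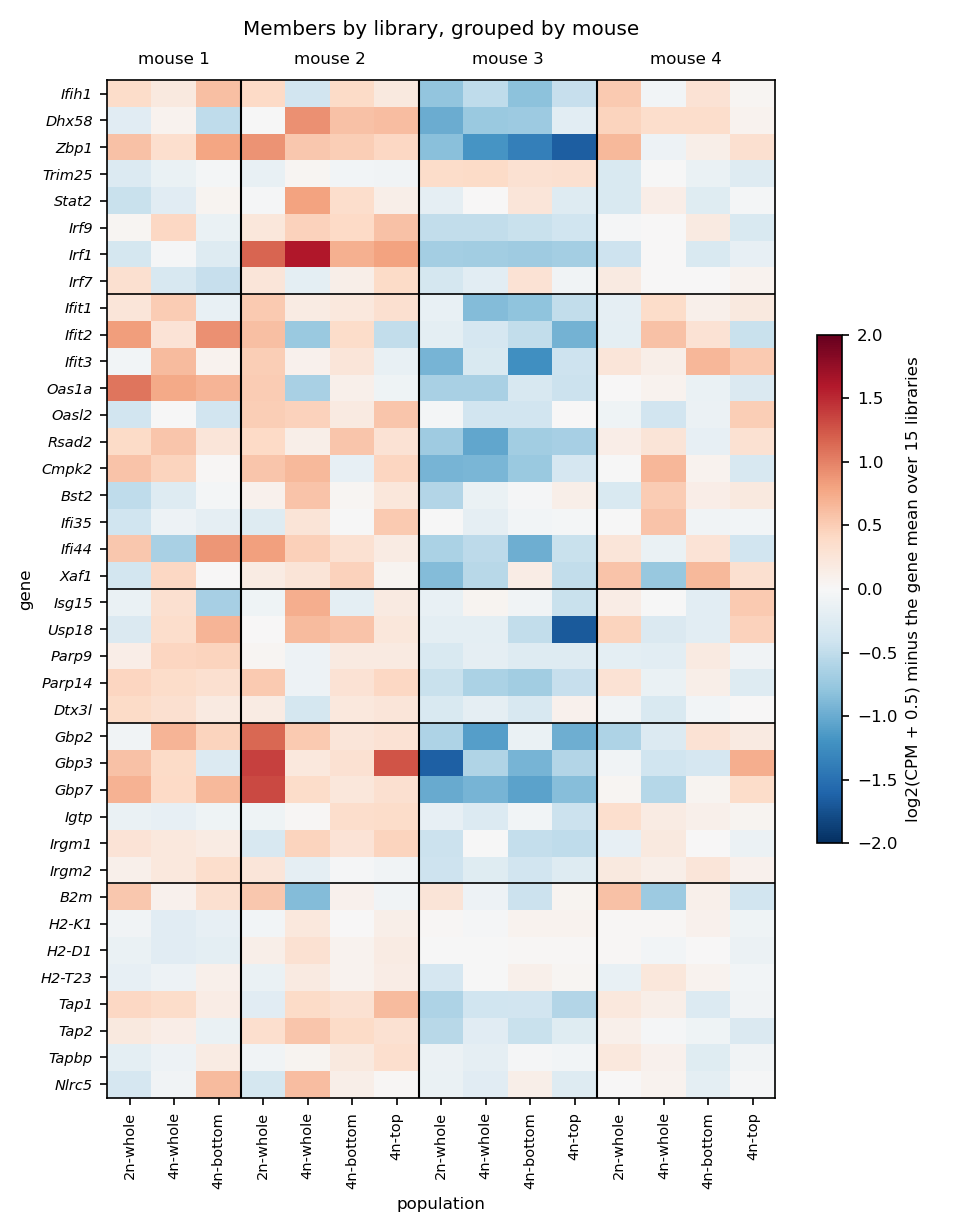
Each row is a member, each column a library grouped by mouse, and the colour is log2(CPM + 0.5) minus the mean of the gene over the 15 libraries; horizontal lines separate the sensor and signalling, antiviral effector, ISG15 and PARP, GTPase and MHC class I lists. The columns of mouse 3 are mostly blue in the upper 4 lists, and B2m is blue in the 4n-whole columns of mice 2 and 4.

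Mouse 3 was the lowest of its population for 26 of 38 members in 2n-whole, 21 in 4n-whole, 24 in 4n-bottom and 29 in 4n-top. For these counts by population the share of all tested genes is not given here. For 14 of the 38 members mouse 3 was the lowest in every population, as it was for 4.03% of all tested genes. These were Ifih1, Dhx58, Zbp1, Irf9, Irf1, Ifit3, Rsad2, Cmpk2, Parp14, Gbp3, Gbp7, Irgm1, Irgm2 and Tap1. The mean over the members of the log2 level, centred per gene, was -0.55 in 2n-whole, -0.53 in 4n-whole, -0.50 in 4n-bottom and -0.53 in 4n-top of mouse 3, and between 0.00 and 0.42 in the other 11 libraries. Without mouse 3, 9 of the 38 members differed among the mice, when 11.5% of all tested genes did.

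Zbp1 was among the members with the smallest p in this test (adjusted p = 1.29e-06). It was at 1.88 CPM in 2n-whole, 1.39 in 4n-whole, 1.15 in 4n-bottom and 0.86 in 4n-top of mouse 3. In the same order of populations it was at 5.89, 4.89 and 6.89 CPM in mouse 1, at 7.42, 5.69, 5.49 and 5.15 CPM in mouse 2 and at 6.15, 3.48, 4.12 and 4.81 CPM in mouse 4. Gbp7 was at 3.69, 3.92, 3.49 and 4.18 CPM in mouse 3, at 8.19, 5.18, 8.2 and 10.3 CPM in mouse 4, at 13.2, 10.5 and 12.7 CPM in mouse 1 and at 20.5, 10.3, 9.36 and 9.95 CPM in mouse 2 (adjusted p = 4.99e-06). It shares 11.5% of its 50-base stretches with the overlapping Gm43802. Parp14 was at 22.3, 19.5, 18.7 and 22.1 CPM in mouse 3 and at 25.7 CPM or more elsewhere (adjusted p = 9.07e-06). In all of these, no library of another mouse was as low as those of mouse 3.

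Irf1 (GRCm39, chr11:53660812-53669200, plus strand), a transcription factor induced by interferon gamma and by other cytokines, had the smallest p of all members (adjusted p = 3.38e-11, log2 range 1.79). In mouse 2 it was at 76 CPM in 2n-whole, 103 in 4n-whole, 55.6 in 4n-bottom and 59.4 CPM in 4n-top, and the other mice are given in this order. In mouse 1 it was at 26.4, 33.2 and 28.2 CPM, in mouse 4 at 25.1, 33.9, 27.3 and 30.1 CPM and in mouse 3 at 20.9, 20.7, 20.5 and 21 CPM. Mouse 2 stood above and mouse 3 below in every population. Mouse 2 was the highest in every population for 6 members (Irf1, Irf9, Stat2, Oasl2, H2-D1 and Tap2) of 38, as it was for 2.7% of all tested genes. Socs3, the feedback inhibitor of cytokine signalling and no member, was likewise highest in mouse 2 and lowest in mouse 3 in every population, at 105, 171, 115 and 113 CPM in mouse 2 (same order of populations) and from 32.5 to 54.5 CPM in the other mice (adjusted p = 5.94e-13).

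Trim25 went the other way, with 105 CPM in 2n-whole, 106 in 4n-whole, 99.5 in 4n-bottom and 101 in 4n-top of mouse 3 and 65.2 to 83.2 CPM in the other mice (adjusted p = 0.000177). It was the 1 member highest in mouse 3 in every population. B2m, H2-K1, H2-T23, Tapbp and Nlrc5 did not pass the test among the mice (adjusted p = 0.197, 0.317, 0.765, 0.512 and 0.642), whereas H2-D1 did, with a log2 range of 0.36 (adjusted p = 0.034). Irf7, Igtp, Usp18, Ifi35, Ifit2, Ifi44, Xaf1, Oas1a, Oasl2 and Isg15 did not pass either.

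**Figure D4:**
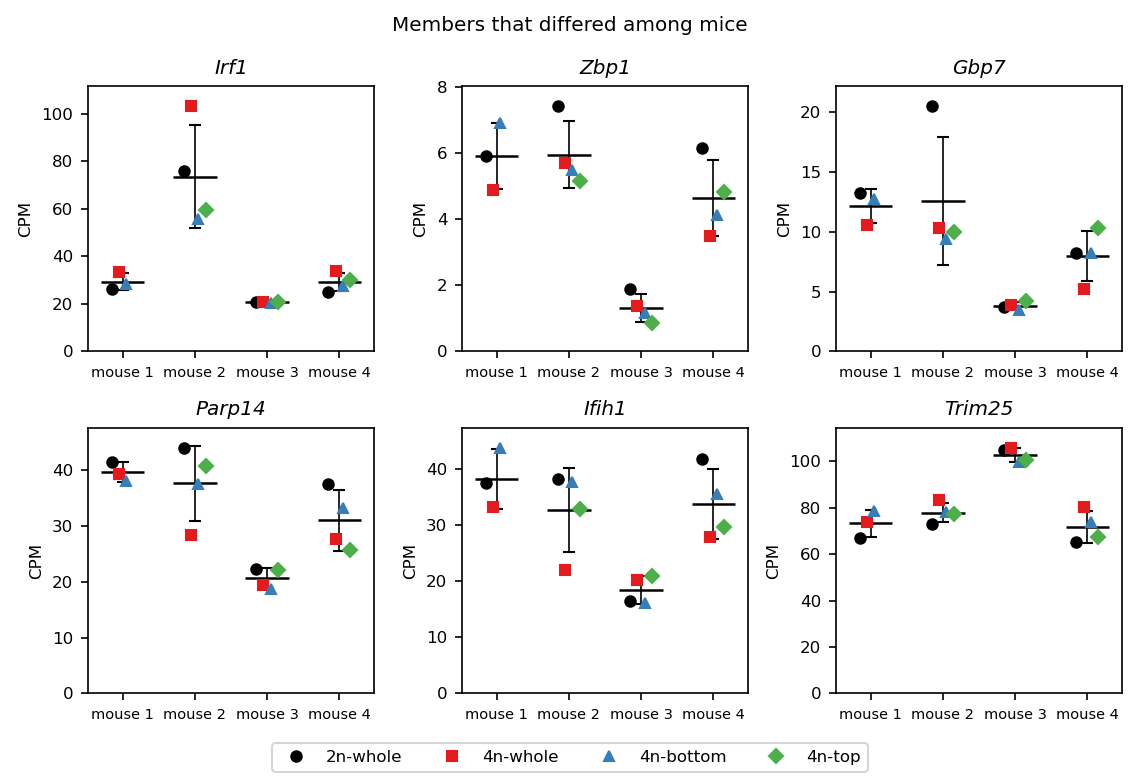
CPM (TMM-scaled) of Irf1, Zbp1, Gbp7, Parp14, Ifih1 and Trim25 in each library by mouse, with the population as symbol, the mean as a bar and the SD over populations as whiskers (3 libraries for mouse 1 and 4 for each other mouse). Irf1 is highest in all 4 libraries of mouse 2, Zbp1, Gbp7, Parp14 and Ifih1 are lowest in mouse 3, and Trim25 is highest in mouse 3.

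After the means of the populations were removed, the median correlation between members over the 15 libraries was 0.41, and 580 of 703 pairs (82.5%) were positive. These libraries share mice, so that the values describe the same differences among the mice. The matching values over all tested genes are not given here. B2m had a mean correlation of 0.02 with the other members, and Irf1 of 0.48, whereas Trim25 had -0.51.

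Markers of other cells also differed among the mice. The 11 endothelial markers summed to 24.5 to 27.8 CPM in mouse 1, 25.1 to 40.8 in mouse 2, 7.01 to 20.4 in mouse 3 and 6.26 to 24 in mouse 4. In the 4n populations they were at most 9.14 CPM in mice 3 and 4. With a covariate for Kupffer, endothelial and stellate markers, 19 of 38 members differed among the mice. The share of all tested genes in that fit is not given here, so the count cannot be set against it. Of 12 lymphocyte and dendritic cell markers, 6 to 12 were at 0 in each library. Their part in the result was not tested beyond this.

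The wider lists of the pathway differed among the mice to unequal extents. Of 57 tested interferon-stimulated genes that are no members, 32 (56.1%) differed, against 19.2% of all tested genes, and 20 were lowest in mouse 3 in every population, against 4.03% of all tested genes, and the sum of the list was 1210 to 1300 CPM in mouse 3 and 1540 to 1890 CPM in the other mice. Among them were Psmb8 and Psmb9, subunits of the immunoproteasome, the latter at 0.997 to 2.57 CPM in mouse 3 and 2.44 to 7.66 CPM in the others. Of 27 other MHC class I and peptide loading genes, 15 (55.6%) differed, and of 11 sensing genes 6 (54.5%). This class I list also holds Psmb8 and Psmb9, which are thus counted in both lists. Of 14 receptor, JAK-STAT and SOCS genes 3 differed (21.4%), a share near that of all tested genes, and 1 of them was lowest in mouse 3 in every population. None of the 6 tested MHC class II genes passed, but their median log2 range was 3.35, and the list summed to at most 4.22 CPM. Outside the pathway, 5 of 9 hepatocyte markers (55.6%) and 7 of 11 endothelial markers (63.6%) differed. A high share was therefore not particular to the interferon lists. No tested Kupffer or stellate marker passed, but their median log2 ranges were 4.35 and 1.73, against 0.67 for all tested genes. These lists summed to at most 10.7 and 5.91 CPM, so that not passing does not show even levels among the mice. No hepatocyte or endothelial marker was lowest in mouse 3 in every population. Of the 11 endothelial markers, 4 were highest in mouse 2 in every population, against 2.7% of all tested genes, and no hepatocyte marker was. Within each population the summed hepatocyte markers were highest in mouse 3. This sum ranged from 93800 to 104000 CPM in mouse 3 and from 73700 to 94400 CPM in the other mice. The receptor chain Ifnar1 did not pass the test (adjusted p = 0.0896), nor did Ifngr1 (adjusted p = 0.664). Of 10 interferon genes 1 was tested, Ifnk, at 1.96 to 4.88 CPM in all libraries, and it did not pass.

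Between 4n-whole and 2n-whole, 1 of the 57 other interferon-stimulated genes was called higher and 4 lower, when 1.74% and 1.73% of all tested genes were. The median log2 fold change of the 57 was -0.25, against -0.01 over all tested genes. Gbp10 was at 6.93, 6.43, 1.74 and 2.87 CPM in 2n-whole of mice 1 to 4 and at 14.5, 11.8, 2.11 and 6.42 CPM in 4n-whole (log2 fold change 0.85 ± 0.25, adjusted p = 0.0453). Ifitm3, a membrane protein that blocks viral fusion, was at 64, 63, 34.2 and 53 CPM in 2n-whole and at 47.1, 33.4, 28.2 and 37 CPM in 4n-whole (-0.54 ± 0.12, adjusted p = 0.00631). Ifitm2 (-0.98, adjusted p = 0.0192), Irf8 (-1.54, adjusted p = 0.0487) and Pnpt1, a mitochondrial exoribonuclease (-0.60, adjusted p = 0.0262), were lower as well. Irf8 is a factor of myeloid cells and was at 4.73 CPM or less. None of the receptor and JAK-STAT, sensing, other class I or MHC class II genes was called, and no gene of these lists was called in the other 3 comparisons. Few markers of other cells were called in this comparison. Of 11 endothelial markers 1 was called, Ptprb (-1.03, adjusted p = 0.0388), 9 had a fold change below 0 and 2 above, and the summed level went from 26.01 to 27.85 CPM in mouse 1, from 34.71 to 40.77 in mouse 2, from 20.35 to 8.899 in mouse 3 and from 23.99 to 6.258 in mouse 4. Of 4 tested cholangiocyte markers Sox9 was called lower (-0.62, adjusted p = 0.00229), and all 4 had a fold change below 0 (median log2 fold change -3.375). No tested Kupffer, stellate or lymphocyte marker was called. Of 8 tested Kupffer markers, 6 were below 0 and 2 above (median -1.841), and all 5 tested stellate markers were below 0 (median -1.569). The 1 tested lymphocyte marker was at -1.755. The 12 lymphocyte and dendritic cell markers summed to 0.69 to 1.58 CPM in 2n-whole and 0.0266 to 0.569 in 4n-whole. Among the hepatocyte markers the pericentral gene Cyp2e1 was higher (1.71, adjusted p = 1.35e-06) and the periportal gene Cps1 was at a mean of 7958 CPM in 2n-whole and 8234 CPM in 4n-whole (0.04, adjusted p = 0.78). The part of these genes in the comparison was not tested beyond the covariate above.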

How the data were processed

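RNA-seq libraries were made with the Takara SMART-Seq Stranded Kit from total RNA of sorted hepatocytes. The authors aligned reads to GRCm39 with STAR (version 2.7.11a in the submitters' processing notes) and counted genes with featureCounts. Its version, annotation, strand and pair settings are not given in the sources used here. The deposited values are raw counts per gene symbol, before the authors' ComBat-seq adjustment. Between 74.2% and 81.4% of counts from 1 to 10 were even in each library, as would be seen if both reads of a pair were counted. Which was counted is not settled, so a count may not be an independent fragment, and the limit of 3 counts may stand for fewer fragments. Halved counts were tried as an alternative. Detection limits cover counting error only.

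Counts of all 15 libraries were fitted with edgeR 4.0.16 in R 4.3.3 (TMM, minimum count 10, minimum total 15, quasi-likelihood F test) with the population and the mouse as terms, with Benjamini-Hochberg adjustment across the 17488 tested genes. The SE was taken as the absolute log2 fold change divided by the square root of the F statistic. Intervals of 95% used this SE and the fit's degrees of freedom, and so include the spread between libraries. Such an SE can be unreliable for a fold change near 0, as for Oas1a in 4n-bottom against 2n-whole (log2 fold change -0.03, SE 4.26). The labels' subject numbers name the mouse. The mean correlation of residuals between libraries of the same mouse was 0.16 (0.08 to 0.23 over 21 pairs), positive for each mouse, so the mouse was kept as a block. Differences among mice were tested on the 3 mouse coefficients together. Alternatives used DESeq2 1.42.0, ComBat-seq (sva 3.50.0), other filters, scalings and samples. Scripts were tested on simulated data.

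Every member is accounted for. Values in every library are given for called members, for the 3 with the smallest p in each test and for a set of named pathway genes. The members and lists were chosen with earlier results of these data known. Positions and exon lengths came from GENCODE M39 (GRCm39), shared sequence from 50-base stretches of its transcripts, and promoter windows from RefSeq (GRCm38.p6). No window was used for Dhx58, Zbp1, Usp18, Parp9, Parp14, Tap2 and Nlrc5. The values of some genes of the wider lists are not reported here.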

Additional observations from a re-analysis of the deposited data

Results flagged for a closer look

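In groups of 4 libraries, 6 of the 114 combinations of a member and a population held a library whose gap to the nearest other, as a share of the group's range, was above Dixon's 95% critical value, and chance flags about 1 in 20. In 2n-whole, Irf1 was highest in mouse 2 at 76 CPM (share of the range 0.901), B2m was lowest in mouse 3 at 685 CPM (0.845), Ifih1 was lowest in mouse 3 at 16.38 CPM (0.832) and Igtp was highest in mouse 4 at 14.1 CPM (0.858). In 4n-whole, Irf1 was again highest in mouse 2 at 103 CPM (0.841), and Parp9 was highest in mouse 1 at 41.1 CPM (0.864). The next library of Irf1 was at 26.4 CPM in 2n-whole and at 33.9 CPM in 4n-whole. Groups of 3 libraries were not examined in this way.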

How the results depend on the processing

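In 4n-whole against 2n-whole, the 2 called members became 0 without the mouse as replicate block, 1 with only the libraries of the compared populations, 1 with the covariate for Kupffer, endothelial and stellate markers, 1 without the 4n-whole library of mouse 2 (an alternative chosen after seeing the data) and 1 to 5 when each mouse was left out in turn. Where 1 was left it was B2m, and Bst2 had lost its call. The 5 came without mouse 3 and the 1 without mouse 4. In 4n-top against 2n-whole, 0 became 1 with no filter on low counts, 1 with only the compared populations, 1 without the 4n-whole library of mouse 2, and 0 to 2 when a mouse was left out, with 2 without mouse 2 and 1 without mouse 3. For 4n-top against 4n-bottom and 4n-bottom against 2n-whole, the count stayed at 0 in every alternative run, the fit without the block included. The 23 members that differed among the mice became 9 without mouse 3, where fewer libraries were tested, and 19 to 24 in every other alternative, and the range over the left-out mice was 9 to 23. For 19 results of single members, picked because their unadjusted p was under 0.05 in the main fit, 266 values were obtained under these alternatives. Of these values, 249 kept their direction and their side of the threshold, 6 fell short of it and 11 passed it. None changed direction, which says little, as the 19 were picked by p in these same data. The other results of the members are not covered by these counts. The causes of these shifts were not tested, and the shares of all tested genes in most of these alternatives are not given here. Isg15 and Oasl2 held 20 counts or fewer in every library, so that their fold changes rest on few counts.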
